A study of Homo sapiens with 4 samples.

Results

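The SOCS family was examined in Nalm-6, an established human line of B-cell precursor leukemia. Its members are SOCS1, SOCS2, SOCS3, SOCS4, SOCS5, SOCS6, SOCS7 and CISH, which are 8 of the 18203 genes that could be named on the array. They were taken as every probe whose RefSeq accession belongs to 1 of these genes, which gave 18 of 41000 probes. The family was chosen because SOCS2 was already known to be high in both knockouts on these arrays, so its levels and differences are given as a description, with no test.

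Cytokine receptors without kinase activity of their own signal through bound JAK kinases, which phosphorylate STAT transcription factors. STAT factors then switch on SOCS genes, and the SOCS proteins block the receptor, the kinase or the STAT docking site. All family members carry an SH2 domain, which binds phosphotyrosine, and a SOCS box, which recruits elongins and a cullin ubiquitin ligase. In B-cell precursors this loop acts on the interleukin-7 receptor, whose signal runs through JAK1, JAK3 and STAT5.

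The 4 groups had 1 array each. They were wild-type cells (WT), a line in which gene targeting had removed Arp5 from both alleles (Arp5 KO), an Arp8 knockout line (Arp8 KO), and a culture whose label gives Arp8 overexpression (Arp8 OE). Arp5 and Arp8 are actin-related subunits of INO80, a complex that remodels chromatin with the energy of ATP. The study describes 1 established line for the Arp5 disruption, so the genotype and the line cannot be told apart. The paper reports slightly slower growth of Arp5 KO cells than of WT, and recalls an earlier report that conditional loss of Arp8 was lethal. Any part of growth or cell death in the differences below was not tested. Titles and protocol gave 20 uM heme for 12 hours, an oxidative stress that induces heme oxygenase-1, for every group. The treatment field gave no heme for both knockouts, and the source field gave no heme for Arp5 KO only, so whether the knockout cells received heme is unresolved and cannot be told apart from the genotype. No difference below was checked against a second culture.

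The 4 arrays lay on 1 slide with 1 scan time. The 75th percentile of the processed signal lay between 647.4 and 739.6, and between 55.9% and 57.4% of probes were well above background. ACTR5, the gene for Arp5, was lower in Arp5 KO by a log2 difference of -4.27. ACTR8, the gene for Arp8, lay at -0.53 and -0.68 on its 2 probes in Arp8 KO, and at 0.02 and -0.01 on the array labelled Arp8 OE, which did not show the overexpression in its label. In Arp8 KO the ACTR8 signal was lower but not lost, and where its probes lie relative to the disrupted part is not given in the sources used here, so these values do not show the knockout. Both arrays are therefore named by their labels only. HMOX1, the gene for heme oxygenase-1, lay at -2.05 for Arp8 OE, -2.98 for Arp5 KO and -2.91 for Arp8 KO. All 13 B-cell precursor markers, among them PAX5, VPREB1 and DNTT, were well above background on all 4 arrays. So were 0 of the 5 T-cell markers with a probe, 1 of 7 myeloid markers (CD14) and 1 of 5 erythroid markers (HBA1). Of the 18 probes of the B-cell precursor markers, 3 were past 2-fold in Arp8 KO, where SOCS2 and CISH were highest. Of these, 1 was higher and 2 were lower, beside 3.37% and 4.35% of all probes tested there. The 3 were CD22 at -2.58, VPREB1 at -1.26 and DNTT at 1.78. In Arp5 KO these lay at -0.89, -0.42 and 0.84, and in Arp8 OE at -0.73, 0.0 and 1.02. Their part in the SOCS differences was not tested.

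Of the 18 SOCS family probes, 14 were well above background on all 4 arrays and 4 on none. Each was printed at 1 spot and none was saturated. A level below is log2 of the processed signal over the array's 75th percentile, and a difference is that level minus the WT level. The error after ± is the scanner software's own error for the spots, combined over both arrays. It covers measurement on the array and not the spread between cultures. For 264 probes printed 10 times, the median SD of a log2 difference between spots was 0.14 at signals of 30 to 100, 0.06 at 100 to 1000 and 0.04 above 1000.

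**Figure D1:**
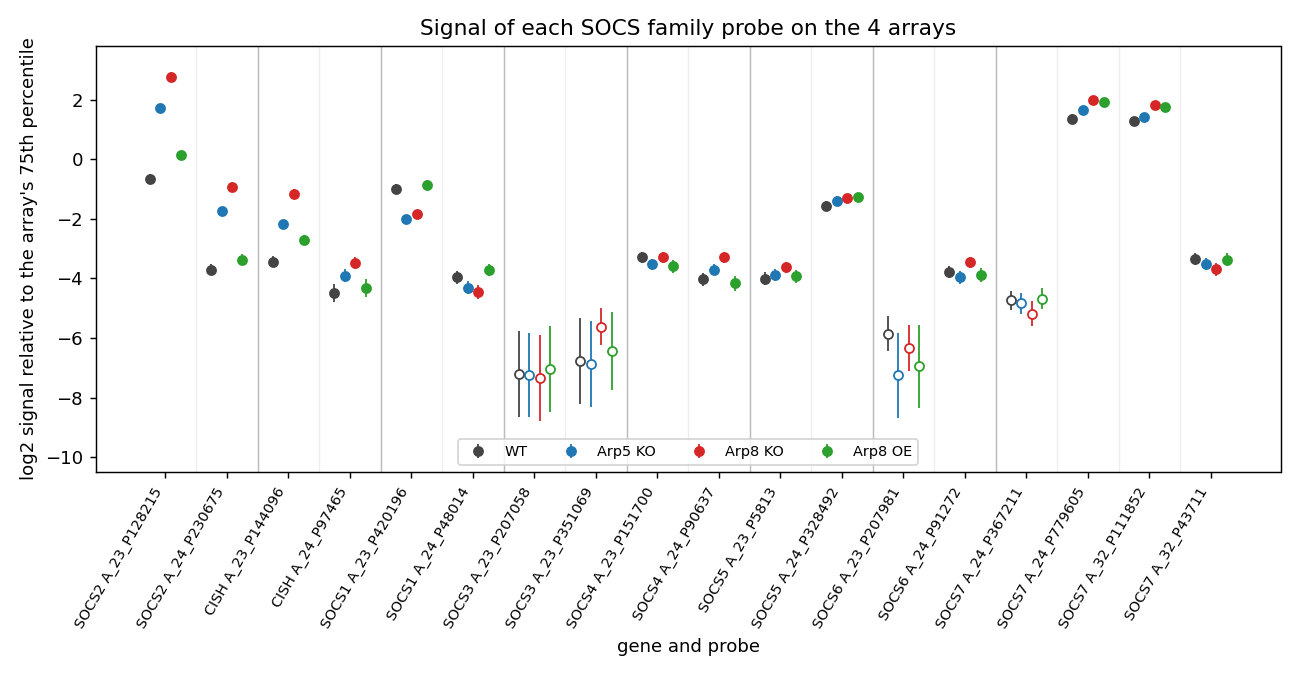
Level of each of the 18 SOCS family probes on the 4 arrays, as log2 signal relative to the 75th percentile of the array (vertical axis), grouped by gene. Points are single arrays, bars are the software's error, and open points were not well above background. Both SOCS2 probes and both CISH probes were lowest in WT and highest in Arp8 KO.

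SOCS2 was the member that differed most. It encodes an inhibitor best known for restraining growth hormone receptor signalling, and it is itself induced by STAT5. On probe A_23_P128215 the processed signal was 464.8 in WT, 713.4 in Arp8 OE, 2423.7 in Arp5 KO and 4481.2 in Arp8 KO. Both knockouts stood well above the other 2 arrays. After scaling, SOCS2 in Arp5 KO exceeded WT 5.18-fold, or by 2.37 ± 0.21 on the log2 scale. In Arp8 KO it was 10.8-fold higher, at 3.43 ± 0.21, which ranked 9 among 24578 probes tested. In Arp5 KO the same probe ranked 73 among 24285.

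The second SOCS2 probe, A_24_P230675, was dimmer and gave the same order of arrays. Its processed signal was 56.0 in WT, 62.6 in Arp8 OE, 222.0 in Arp5 KO and 345.8 in Arp8 KO. The log2 differences were 1.98 ± 0.24 in Arp5 KO and 2.79 ± 0.24 in Arp8 KO, or 3.94-fold and 6.92-fold. On this probe WT and Arp8 OE did not differ beyond 2 errors, with a step of 0.34 ± 0.27. On the brighter probe Arp8 OE was above WT by 0.80 ± 0.21.

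Both knockouts were compared with the same WT array, so the knockouts were also set against the Arp8 OE array. SOCS2 remained higher on each probe, with differences of 1.57 and 1.63 for Arp5 KO and of 2.63 and 2.45 for Arp8 KO. Arp8 KO was above Arp5 KO by 1.06 ± 0.20 on the brighter probe and by 0.81 ± 0.21 on the dimmer one. Of the 6 spots adjacent to each SOCS2 spot, none was bright on a single array, that is, over 2-fold brighter there than on each other array.

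CISH, the founding member of the family, binds the same receptor tyrosines as STAT5 and is a known STAT5 target. On probe A_23_P144096 its processed signal was 67.7 in WT, 99.9 in Arp8 OE, 162.5 in Arp5 KO and 293.2 in Arp8 KO. The 4 arrays stood in the order seen for SOCS2, and each step exceeded 2 errors. The log2 differences from WT were 1.25 ± 0.23 in Arp5 KO (2.39-fold), 2.28 ± 0.23 in Arp8 KO (4.85-fold) and 0.74 ± 0.24 in Arp8 OE. Against Arp8 OE the difference in Arp5 KO was 0.51 ± 0.22 and no longer past 2-fold, and in Arp8 KO it was 1.53 ± 0.22. Background correction by normexp, which adds 50 to every signal here, also took Arp5 KO below 2-fold, to 0.81.

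The second CISH probe, A_24_P97465, lay close to background. Its processed signal was 32.4 in WT, 32.2 in Arp8 OE, 49.4 in Arp5 KO and 58.6 in Arp8 KO. After scaling the order was again the same, but no step between neighbouring arrays exceeded 2 errors. The differences from WT were 0.60 ± 0.37 in Arp5 KO and 1.02 ± 0.35 in Arp8 KO. The latter lay just past 2-fold, and normexp moved it to 0.30.

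The CISH start site is where STAT5 is known to bind, so, after the values were seen, the sequence from 250 bases before to 50 after the start was searched for the core STAT motif TTCNNNGAA, which reads the same on both strands. RefSeq promoters (GRCh38.p14) were at hand for CISH, SOCS1, SOCS3, SOCS4 and SOCS6, but not for SOCS2, SOCS5 and SOCS7. CISH (chr3:50611725-50612024, minus strand) and SOCS1 (chr16:11256155-11256454, minus strand) are shown because their probes lay on opposite sides of WT in the knockouts, with each match in capitals, 5′ to 3′.
CISH: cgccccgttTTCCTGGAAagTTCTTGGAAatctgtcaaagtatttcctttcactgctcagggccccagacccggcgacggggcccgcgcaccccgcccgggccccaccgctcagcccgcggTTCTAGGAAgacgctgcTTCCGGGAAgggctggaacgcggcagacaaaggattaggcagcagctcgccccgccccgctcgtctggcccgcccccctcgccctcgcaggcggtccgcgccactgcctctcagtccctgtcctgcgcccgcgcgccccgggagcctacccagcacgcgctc
SOCS1: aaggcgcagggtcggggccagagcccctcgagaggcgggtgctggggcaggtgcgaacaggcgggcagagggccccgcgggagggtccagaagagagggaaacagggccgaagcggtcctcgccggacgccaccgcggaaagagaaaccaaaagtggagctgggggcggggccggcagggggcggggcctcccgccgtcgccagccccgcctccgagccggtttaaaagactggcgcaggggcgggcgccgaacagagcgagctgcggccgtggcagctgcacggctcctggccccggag

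The CISH promoter held 4 matches, starting 241, 230, 129 and 112 bases before the start site, in 2 close pairs. The sequences searched for SOCS1, SOCS3, SOCS4 and SOCS6 held none. Each gene was searched at 1 start site only, so matches elsewhere, or at any other start site of a gene, are not covered. Of 27305 promoters of 300 bases, 7.88% held at least 1 match and 6 (0.022%) held 4 or more. The same motif with 4 free bases in its middle, present in 6.37% of all promoters, was in none of the members' 5. These are matches of letters, and binding was not measured. CISH was searched because STAT5 is known to bind there, so the shares are a description and no test.

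SOCS1 lay on the other side of WT from SOCS2 and CISH in both knockouts. It encodes an inhibitor that blocks the JAK active site directly and is best known for limiting interferon signalling. On probe A_23_P420196 the processed signal was 371.0 in WT, 356.5 in Arp8 OE, 182.1 in Arp5 KO and 182.0 in Arp8 KO. The knockouts lay together below WT and Arp8 OE, and within each of these pairs the arrays did not differ beyond 2 errors. The log2 differences from WT were -1.04 ± 0.21 in Arp5 KO, just past 2-fold, and -0.86 ± 0.21 in Arp8 KO, just short of it. With normexp the Arp5 KO difference was -0.78, and as the mean over both SOCS1 probes it was -0.69.

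The dimmer SOCS1 probe, A_24_P48014, read 47.0 in WT, 49.5 in Arp8 OE, 37.3 in Arp5 KO and 29.9 in Arp8 KO. Its differences from WT were -0.34 ± 0.31 in Arp5 KO and -0.49 ± 0.32 in Arp8 KO, both within 2 errors. An adjacent spot of this probe was bright on Arp8 KO alone, and its part in the value was not tested.

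SOCS3, the inhibitor of receptors that share gp130, was not well above background on either probe on any array. The 8 readings lay between 4.0 and 13.3, below the dimmest reading counted as well above background on each array (18.3 to 23.0). No difference is given for it.

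**Figure D2:**
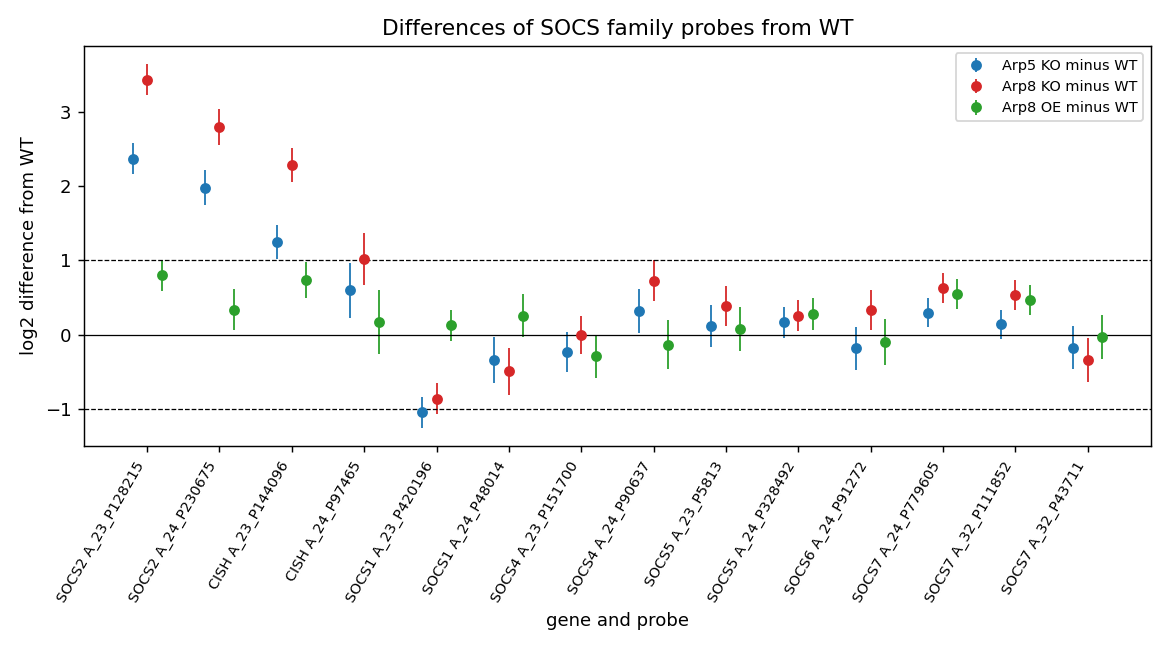
Log2 difference from WT (vertical axis) for the 14 SOCS family probes well above background, with the 3 other arrays shown by colour. Bars are the software's error over both arrays and dashed lines mark 2-fold. SOCS2 reached 3.43 in Arp8 KO and the SOCS4 to SOCS7 probes lay between -0.34 and 0.73.

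The members with long amino-terminal regions, SOCS4, SOCS5, SOCS6 and SOCS7, stayed closer to WT. None of their 8 tested probes passed 2-fold. In Arp5 KO they lay between -0.23 and 0.32, and none differed beyond 2 errors. In Arp8 KO they lay between -0.34 and 0.73, with 3 of 8 beyond 2 errors. Of all probes tested, 1.69% were over 2-fold higher and 2.01% lower in Arp5 KO, and 3.37% and 4.35% in Arp8 KO. A set of 8 probes with none past 2-fold is thus near the share over all probes. The share of all probes beyond 2 errors was not computed.

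SOCS4 and SOCS5 are linked to signalling by the epidermal growth factor receptor. The SOCS4 probe A_24_P90637 read 45.0 in WT, 36.2 in Arp8 OE, 56.5 in Arp5 KO and 66.7 in Arp8 KO, a difference of 0.73 ± 0.28 in Arp8 KO. The other SOCS4 probe, A_23_P151700, was at 0.00 ± 0.26 in Arp8 KO. SOCS5 on its brighter probe, A_24_P328492, read 248.3 in WT, 266.1 in Arp8 OE, 281.4 in Arp5 KO and 265.1 in Arp8 KO, with no difference beyond 2 errors.

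SOCS6, which binds the KIT receptor, was measured on 1 of its 2 probes, A_24_P91272. It read 53.3 in WT, 44.0 in Arp8 OE, 47.3 in Arp5 KO and 59.7 in Arp8 KO. No step between neighbouring arrays exceeded 2 errors. SOCS7, which binds the adaptor NCK, was bright on 2 of its 4 probes. The SOCS7 probe A_24_P779605 read 1892.5 in WT, 2431.9 in Arp8 OE, 2337.3 in Arp5 KO and 2604.5 in Arp8 KO. This probe was above WT by 0.63 ± 0.20 in Arp8 KO and by 0.55 ± 0.20 in Arp8 OE. Probe A_32_P111852 gave 0.54 ± 0.20 and 0.47 ± 0.20 on these arrays, whereas the dim probe A_32_P43711 gave -0.34 ± 0.30 and -0.03 ± 0.30.

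Across the family, 3 of 14 tested probes were over 2-fold higher in Arp5 KO, where 1.69% of all 24285 probes tested were higher. They were both SOCS2 probes and 1 CISH probe. In Arp5 KO 1 SOCS1 probe was over 2-fold lower, against 2.01% of all probes. In Arp8 KO 4 of 14 were higher, both probes of SOCS2 and both of CISH, against 3.37% of all 24578, and none was lower, against 4.35%. On the array labelled Arp8 OE none of the 14 passed 2-fold, where 2.96% of all probes were higher and 2.15% lower. Between the other pairs of arrays, 2 probes were over 2-fold higher in Arp8 KO than in Arp5 KO (2.53% of all probes) and 0 lower (3.18%). Against Arp8 OE, 3 were higher in Arp8 KO (1.64%) and 0 lower (3.78%), and 2 were higher in Arp5 KO (2.08%) and 1 lower (3.28%). The family was chosen on these differences, so the shares describe it and support nothing. The median over the 14 probes was 0.16 for Arp5 KO and 0.46 for Arp8 KO, against 0.004 and 0.026 over all probes.

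**Figure D3:**
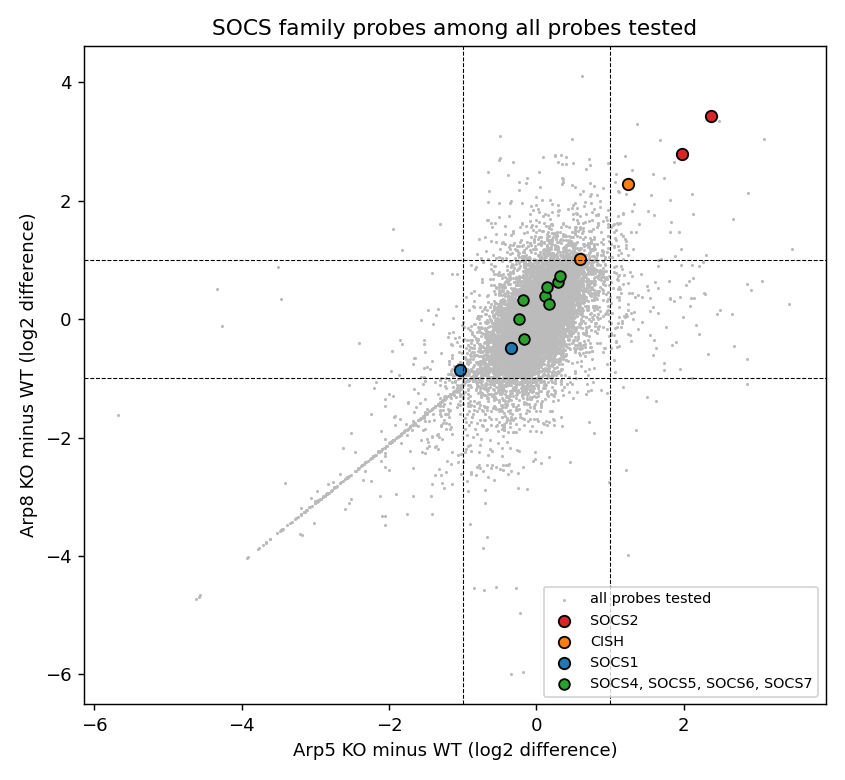
Log2 difference from WT for Arp5 KO (horizontal) and for Arp8 KO (vertical) for every probe tested in both (grey), with the 14 SOCS family probes in colour and dashed lines at 2-fold. Both axes share the WT array, and the grey diagonal at the lower left is made of probes set to the floor on both knockout arrays. Both SOCS2 probes and 1 CISH probe lie past 2-fold in both knockouts.

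To find transcripts with a like pattern, distances were taken over the 3 differences from WT, among 16578 probes of named genes well above background on all 4 arrays. For the brighter SOCS2 probe the nearest genes were NEK3 (distance 0.90), GRIN2C (1.02), RUNX1T1 (1.09), GJA3 (1.23) and ATP7B (1.40). NEK3, a protein kinase, lay at 0.39 for Arp8 OE, 1.68 for Arp5 KO and 3.02 for Arp8 KO. NEK3, GRIN2C, RUNX1T1 and GJA3 kept the order of arrays seen for SOCS2, whereas ATP7B was higher in Arp5 KO (2.88) than in Arp8 KO (2.13). RUNX1T1 lay at 1.88 for Arp8 OE, where this SOCS2 probe lay at 0.8. For the dimmer SOCS2 probe NEK3 was again nearest (0.38), followed by GJA3 (0.69), GRIN2C (0.91), CISH (0.97) and CBFA2T3 (1.18). CISH was thus among the nearest genes to SOCS2 on 1 of the 2 SOCS2 probes. RUNX1T1 and CBFA2T3 belong to the same family of corepressors.

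For the brighter CISH probe the nearest genes were LGR6 (0.27), NINJ2 (0.36), GJA3 (0.50), C5orf24 (0.52) and CBFA2T3 (0.53). The dim CISH probe was nearest to TBC1D1 (0.05), NDUFB2-AS1 (0.07), CFAP97 (0.10), INO80 (0.11) and ZHX3 (0.11). For SOCS1 they were COPZ1 (0.10), TTC9 (0.16), PTCRA (0.21), POLI (0.21) and RABGAP1L (0.26). A likeness over 4 arrays that share 1 reference is a description only. The probes of GRIN2C, CBFA2T3 and ZHX3 each had 1 adjacent spot bright on 1 array alone and that of COPZ1 had 3, and their part was not tested.

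The protein-coding genes on either side of SOCS2, CISH and SOCS1 were then examined, 3 on each side, a choice made after the values were seen. Around SOCS2 on chromosome 12, the 6 neighbours had 13 tested probes, which lay between -0.34 and 0.71 in Arp5 KO, with none past 2-fold. In Arp8 KO 2 were past 2-fold, CRADD at -1.12 and 1 of 5 NUDT4 probes at 1.05, and both of these probes had adjacent spots bright on 1 array alone. The adjacent gene MRPL42 lay at -0.34 and 0.05 on its 2 probes in Arp8 KO. Around CISH the neighbours lay between -1.03 and 0.37 in Arp5 KO and between -1.45 and 0.50 in Arp8 KO. There 1 of 3 HEMK1 probes was past 2-fold, at -1.03 and -1.45, and it was also past 2-fold lower in Arp8 OE, at -1.12. Around SOCS1 no probe passed 2-fold. None of the neighbours' tested probes was over 2-fold higher in both knockouts. Of all probes tested, 1.69% were over 2-fold higher and 2.01% lower in Arp5 KO, and 3.37% and 4.35% in Arp8 KO. Few probes of any small set are thus past 2-fold, and these counts show nothing particular to the loci.

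Finally, the rest of the JAK-STAT pathway, the partners of the SOCS box and other SOCS box proteins were described from 9 gene lists. The partners gave 8 of the probes tested in each comparison below, and the other SOCS box proteins gave 27. Over their 132 tested probes in Arp5 KO, none was over 2-fold higher and 6 (4.55%) were lower, beside 1.69% and 2.01% of all probes. In Arp8 KO 2 of 132 (1.52%) were higher and 13 (9.85%) lower, beside 3.37% and 4.35% of all probes. On the array labelled Arp8 OE 8 of 131 (6.11%) were higher and 3 (2.29%) lower, beside 2.96% and 2.15%. Of the higher probes there, those of LEPR (1.95) and FGL1 (1.92) were bounds, well above background on that array alone. They and a STAT5A and a VEGFA probe each had at least 1 adjacent spot bright on Arp8 OE alone, whose part was not tested. The lists were chosen with earlier results known, so these counts are no test.

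**Figure D4:**
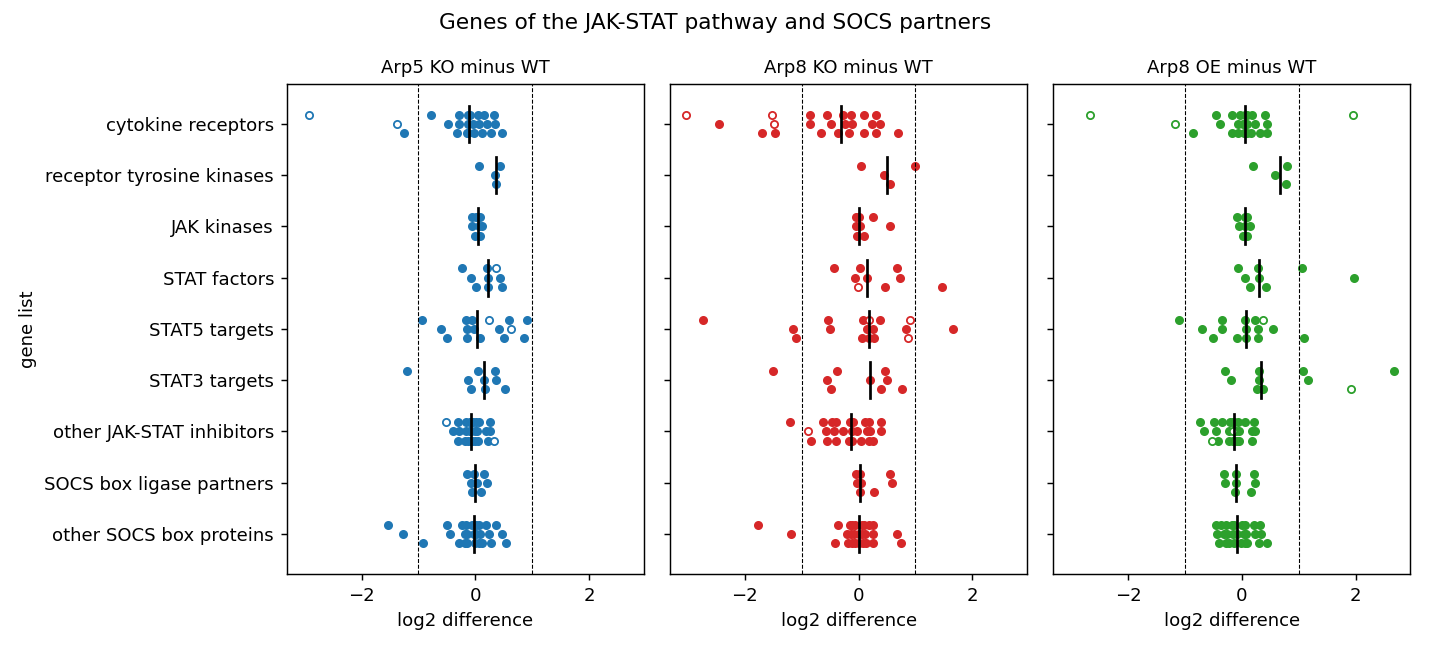
Log2 difference from WT (horizontal axis) for each tested probe of the 9 gene lists, with a panel for each of the 3 other arrays. Open points are bounds, set by the floor of an array where the probe was dim, vertical bars are list medians and dashed lines mark 2-fold. JAK kinases lay between -0.08 and 0.55 over the 3 panels and 6 cytokine receptor probes were past 2-fold lower in Arp8 KO.

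Among cytokine receptors, none of 24 tested probes was over 2-fold higher in either knockout. Of all probes, 1.69% were higher in Arp5 KO and 3.37% in Arp8 KO. Over 2-fold lower were 3 receptor probes in Arp5 KO (2.01% of all probes were) and 6 in Arp8 KO (4.35%). The list medians were -0.11 and -0.31. IL7R, the interleukin-7 receptor chain that B-cell precursors depend on, read 12071.7 in WT, 5885.9 in Arp8 OE, 11868.3 in Arp5 KO and 3337.1 in Arp8 KO. IL7R thus lay at -0.03 for Arp5 KO, at -1.69 for Arp8 KO and at -0.85 for Arp8 OE, and its part in the SOCS2 differences was not tested. IL21R, the interleukin-21 receptor, lay at -0.78 for Arp5 KO and -2.46 for Arp8 KO. IL3RA, the interleukin-3 receptor chain, was lower in both on its brighter probe, at -1.26 and -1.46, and lay at 0.18 in Arp8 OE.

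IL2RG, the common gamma chain that pairs with IL7R and IL21R, lay at -0.48 in Arp5 KO, and only bounds could be given for Arp8 KO (-1.52) and Arp8 OE (-1.17). IL2RA was well above background on WT only, with bounds of -2.92 and -3.03 in the knockouts and -2.67 in Arp8 OE. That IL2RA probe had 3 adjacent spots bright on WT alone, their part was not tested, and the other IL2RA probe was well above background on none of the 4 arrays.

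All 8 probes of JAK1, JAK2, JAK3 and TYK2 lay between -0.06 and 0.12 in Arp5 KO, and between -0.05 and 0.55 in Arp8 KO, where JAK2 was the highest. STAT5A, which with STAT5B activates CISH and SOCS2, was at 0.47 and 0.22 on its 2 probes for Arp5 KO, 0.67 and 1.46 for Arp8 KO, and 1.05 and 1.97 for Arp8 OE. STAT5A was highest in Arp8 OE on both probes. Its phosphorylation was not measured, and its part in the SOCS2 differences was not tested. The second STAT5A probe, A_24_P173088, had 2 adjacent spots bright on Arp8 OE alone and 1 on Arp8 KO alone, and their part was not tested. STAT5B was at 0.21 and -0.07 in Arp5 KO and Arp8 KO, STAT6 at 0.43 and 0.47, and STAT2 at -0.24 and -0.43. STAT3 stayed within 2-fold in both on its 3 probes, and STAT4 was well above background on 2 arrays at most.

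Other genes regulated through STAT5 lay on both sides of WT. Of 17 tested probes in Arp8 KO, 1 was over 2-fold higher and 3 were lower, beside 3.37% and 4.35% of all probes, with a median of 0.19. None of 16 passed 2-fold in Arp5 KO, where 1.69% of all probes were higher and 2.01% lower. OSM, the cytokine oncostatin M, was the 1 higher, with a signal of 59.5 in WT, 112.7 in Arp8 OE, 112.9 in Arp5 KO and 168.1 in Arp8 KO. Its differences from WT were 1.1 for Arp8 OE, 0.91 for Arp5 KO and 1.66 for Arp8 KO. BCL6, a transcriptional repressor that STAT5 represses in some B cells, lay at -1.1 for Arp8 OE, -0.94 for Arp5 KO and -2.74 for Arp8 KO. Beside its probe, 2 spots were bright on Arp5 KO alone, and their part was not tested. ID1 and DUSP6 were lower in Arp8 KO, at -1.16 and -1.10.

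Among genes induced through STAT3, 1 of 4 VEGFA probes passed 2-fold in the knockouts, at -1.20 and -1.51, while another lay at 0.17 and 0.47. The 4 VEGFA probes thus disagreed, and on the array labelled Arp8 OE 3 of them were past 2-fold higher, at 1.07, 1.17 and 2.68. The probe at 2.68 had 1 adjacent spot bright on Arp8 OE alone and the probe at 1.17 had 1 bright on Arp5 KO alone, and their part was not tested. The median of the list was 0.16 for Arp5 KO and 0.20 for Arp8 KO. Its direction was not stable, since it turned to -0.71 and -0.86 against Arp8 OE and to -0.01 and -0.11 without a filter and floor.

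Of the other inhibitors of the pathway, none was over 2-fold higher. Of 27 probes tested in Arp5 KO none passed 2-fold, where 1.69% of all probes were higher and 2.01% lower. Of 26 in Arp8 KO only PTPN6 did, beside 3.37% of all probes higher and 4.35% lower there. PTPN6, the phosphatase SHP-1, read 4197.1 in WT, 2645.5 in Arp8 OE, 5018.4 in Arp5 KO and 1614.4 in Arp8 KO. The differences from WT were -0.48 for Arp8 OE, 0.25 for Arp5 KO and -1.21 for Arp8 KO. Its probe had 2 adjacent spots bright on WT alone and 1 on Arp5 KO alone, and their part was not tested.

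The proteins through which a SOCS box acts stayed near WT. None of the 8 probes for elongins B and C, CUL2, CUL5, RNF7 and RBX1 passed 2-fold, and CUL5 was the highest at 0.59 in Arp8 KO. In Arp5 KO 1.69% of all probes were over 2-fold higher and 2.01% lower, and in Arp8 KO 3.37% and 4.35%. None past 2-fold among 8 probes is near these shares. Among other SOCS box proteins, SPSB1, an adaptor of the inducible nitric oxide synthase, was lower on both probes, at -1.27 and -0.92 in Arp5 KO and -1.76 and -1.18 in Arp8 KO. RAB40B lay at -1.53 for Arp5 KO and -0.42 for Arp8 KO. The receptor tyrosine kinases that SOCS proteins bind had no probe past 2-fold among the 4 tested, which is also near the shares over all probes. Their medians were 0.68 for Arp8 OE, 0.36 for Arp5 KO and 0.51 for Arp8 KO. Against Arp8 OE the knockout medians turned to -0.29 and -0.13, and normexp lowered them to 0.21 and 0.26.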

How the data were processed

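Cy3-labelled RNA of 4 cultures was hybridised to one-colour Agilent arrays. The authors deposited the linear spot intensity of each scan, made with version 10.10.1.1 of Agilent Feature Extraction, background-subtracted and detrended within each array and not normalized between arrays. The deposited series matrix holds the same intensity times 1 factor per array (1.995 to 2.29) and was used as an alternative. Samples were grouped by genotype.

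Each processed signal was divided by the 75th percentile of its array, controls left out, and log2 was taken. Outlier spots (69 to 76 per array) were left out and spots of a probe were averaged. A probe was well above background where 50% or more of its spots carried that flag. Differences were taken for probes that met this on 1 or both of the arrays compared. On the other array it took the higher of its own level and the lowest level among probes well above background, so its difference is a bound. Accessions were matched to GRCh38.p14 symbols for 27210 of 41000 probes. The array design is on hg19, so no probe coordinates are given. Adjacent spots had centres within 20 pixels and were called bright where well above background and over 2-fold brighter on a single array than on each other one. Of all probes, 17.7% had at least 50% of their spots beside one.

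With 1 array per group no test was made, and precision is limited by their number. Genes were named by rule: targeted genes, HMOX1, family members, the JAK and STAT genes, list genes past 2-fold against WT in a knockout (at most 6 a list) and the 5 nearest patterns of each SOCS probe past 2-fold. CRADD, NUDT4, MRPL42, HEMK1, LEPR and FGL1 and the motif search were chosen after the values were seen. The family, lists and rules were chosen with earlier results of these data known. Some listed genes are not reported here. The calculation was tested on simulated data. Python 3.11.15, numpy 2.4.6, pandas 2.3.3, R 4.3.3 and limma 3.58.1 were used.

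Alternatives were median scaling, quantile normalization, cyclic loess, normexp with an offset of 50 (on the median spot signal), the series matrix, a stricter filter (well above background on both arrays), neither filter nor floor, Arp8 OE as the reference, a 4-fold threshold, and gene means over probes. Leaving out probes beside a bright spot was planned but had nothing to leave out among the SOCS2, CISH and SOCS1 probes past 2-fold.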

Additional observations from a re-analysis of the deposited data

How the results depend on the processing

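Of 326 values recomputed under the alternatives, 281 stayed within their error (counts within 1.5 times), 45 moved further, and none that was past 2-fold changed sign, although list medians did. Median scaling, quantile normalization and cyclic loess moved none. The series matrix moved none by construction, since its 1 factor per array cancels, and no SOCS2, CISH or SOCS1 probe past 2-fold lay beside a bright spot, so none was left out. The stricter filter moved only the median of the STAT factors in Arp8 KO, from 0.14 to 0.30. Normexp brought SOCS2 to 2.12 and 1.14 in Arp5 KO and to 3.14 and 1.82 in Arp8 KO (A_23_P128215 and A_24_P230675), and CISH to 0.81 in Arp5 KO and to 1.59 and 0.30 in Arp8 KO (A_23_P144096 and A_24_P97465). The added 50 lowers differences of dim probes by construction. Against Arp8 OE, SOCS2 was at 1.57 and 1.63 in Arp5 KO and 2.63 and 2.45 in Arp8 KO, and CISH A_23_P144096 at 0.51 and 1.53. Against Arp8 OE the list medians for Arp5 KO and Arp8 KO turned for STAT3 targets (0.16 to -0.71 and 0.20 to -0.86), receptor tyrosine kinases (0.36 to -0.29 and 0.51 to -0.13) and STAT factors (0.22 to -0.23 and 0.14 to -0.12). Without a filter and floor, STAT3 targets turned to -0.01 and -0.11. The cause was not tested. The mean over probes gave SOCS2 3.11 in Arp8 KO, and CISH 0.93 in Arp5 KO and 1.65 in Arp8 KO, by construction. At 4-fold, 1 SOCS probe was higher and 0 lower in Arp5 KO. The count of lower probes in Arp5 KO was 0 with normexp and 2 without a filter and floor, where it was 1 in Arp8 OE. No paired analysis was possible because each group had 1 array. With 1 array per group no replicate could be left out.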
